A study of Homo sapiens with 33 samples.

Results

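The enzymes that write, copy and remove 5-methylcytosine were followed across human embryonic stem cells (ESCs) that differ in the Polycomb methyltransferase EZH2. The set holds 8 genes, *DNMT1*, *UHRF1*, *DNMT3A*, *DNMT3B*, *DNMT3L*, *TET1*, *TET2* and *TET3*, taken by gene name from the 35805 genes of the RNA-seq table, and the 68 windows around their transcriptional start sites, of 153958 in the ChIP-seq table. All 8 genes passed the filter of a mean of 0.1 RPM (reads per 1000000 reads of the library) and were tested among 20608 genes. In GRCh38 they lie at chr19:10133345-10231286 (*DNMT1*, minus strand), chr19:4903080-4962154 (*UHRF1*, plus), chr2:25227855-25342590 (*DNMT3A*, minus), chr20:32762385-32809356 (*DNMT3B*, plus), chr21:44246339-44262216 (*DNMT3L*, minus), chr10:68560656-68694482 (*TET1*, plus), chr4:105145875-105279816 (*TET2*, plus) and chr2:73986404-74108176 (*TET3*, plus). *DNMT1* is overlapped on its own strand by 2 listed genes, of which the higher averaged 2.93 RPM over the 12 libraries.

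The cells were H9, an established human ESC line, grown on mouse feeder cells and sorted for the surface marker SSEA4 before RNA or chromatin was taken. EZH2+/+ ESCs were the parental line. EZH2-/+ ESCs carry a Cas9-made mutation on 1 allele and come from single colonies. EZH2-/- ESCs were made by giving an EZH2-/+ line a doxycycline (DOX)-inducible *EZH2* transgene through piggyBac transposition and cutting the gene again under DOX, and the established lines were then kept without DOX. In EZH2-/-+EZH2 ESCs the transgene was switched on with DOX, so these cells share the disrupted alleles and the extra cloning steps of EZH2-/- ESCs but not of EZH2+/+ ESCs. The clone and the genotype cannot be told apart in comparisons with EZH2+/+ ESCs. Between EZH2-/- and EZH2-/-+EZH2 ESCs, exposure to DOX and the *EZH2* it switches on cannot be told apart.

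RNA-seq gave 3 libraries for each of the 4 genotypes, with 16587860 to 36589089 reads on genes per library. *EZH2* itself was at 59.5 to 68.6 RPM for EZH2+/+, 45.7 to 55.4 RPM for EZH2-/+, 8.65 to 11.5 RPM for EZH2-/- and 256 to 385 RPM for EZH2-/-+EZH2 ESCs. The 8 pluripotent ESC markers summed to between 3134 and 3926 RPM in every library. Single markers nevertheless moved in both directions in EZH2-/- relative to EZH2+/+ ESCs (4 higher and 2 lower by limma). Of all genes tested, 31.4% were called in that comparison. The study calls the 3 libraries of a line biological replicates without saying how the cultures were separated, so p-values measure the spread between these libraries, part of which may be technical. In bulk samples, fewer cells of a type and less RNA per cell cannot be told apart.

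In mammals DNMT3A and DNMT3B place methyl groups on unmethylated CpG dinucleotides, and DNMT3L is a related protein without catalytic activity that binds both and stimulates them. DNMT1 copies the pattern to the new strand at replication, guided by UHRF1, which recognizes hemimethylated CpG. The TET dioxygenases oxidize 5-methylcytosine, which leads to its loss, and in pluripotent cells TET1 is known as an abundant member of the family.

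Promoter sequence is shown first for the TET genes, because H3K27me3, the mark made by EZH2, covered 2 of them (*TET2* and *TET3*) and was lower there without EZH2, unlike at *TET1*. Each run below is the 250 bases before a RefSeq start site in GRCh38.p14, given 5′ to 3′ on the plus strand, with every CpG in capitals. None of the 3 runs overlaps an exon of GENCODE release 44. They lie at chr4:105145625-105145874 (*TET2*), chr2:73984660-73984909 (*TET3*) and chr10:68560087-68560336 (*TET1*), each inside the main promoter window used below.

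TET2: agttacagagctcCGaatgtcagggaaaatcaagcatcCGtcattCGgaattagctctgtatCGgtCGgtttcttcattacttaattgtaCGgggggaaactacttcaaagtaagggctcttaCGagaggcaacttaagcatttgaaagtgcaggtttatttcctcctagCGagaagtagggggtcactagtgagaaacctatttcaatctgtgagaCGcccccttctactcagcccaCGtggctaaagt

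TET3: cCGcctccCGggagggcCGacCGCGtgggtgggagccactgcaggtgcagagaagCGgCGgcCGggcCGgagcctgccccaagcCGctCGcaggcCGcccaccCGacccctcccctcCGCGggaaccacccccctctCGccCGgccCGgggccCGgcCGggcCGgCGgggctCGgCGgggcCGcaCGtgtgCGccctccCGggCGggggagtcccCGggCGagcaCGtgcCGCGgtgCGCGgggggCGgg

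TET1: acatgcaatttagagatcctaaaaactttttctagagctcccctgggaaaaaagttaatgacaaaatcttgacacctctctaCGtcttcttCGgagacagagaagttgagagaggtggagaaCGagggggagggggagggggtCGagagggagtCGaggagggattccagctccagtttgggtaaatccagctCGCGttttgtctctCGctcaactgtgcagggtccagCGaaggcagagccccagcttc

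The motif searched was the letters CG, which read the same on both strands. It occurred 10 times before the *TET2* start, 37 times before the *TET3* start and 9 times before the *TET1* start. Among 35116 RefSeq promoters of the same length the median was 11, and 93.9% held at least 1. As many as the *TET3* promoter were found in 4.00% of promoters, and as many as the *TET2* and *TET1* promoters in 52.2% and 54.1%. *TET2* has another RefSeq start downstream, inside the same window, whose 250 bases held 34. An entry among these promoters was found for 7 of the 8 genes, and *DNMT3L* had none.

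*DNMT3L* was the member with the largest RNA difference between genotypes. It was measured at 0.488, 0.355 and 0.415 RPM in the 3 EZH2+/+ libraries, 0.392, 2.12 and 0.231 RPM for EZH2-/+, 17.3, 26.3 and 43.4 RPM for EZH2-/-, and 5.12, 7.34 and 6.36 RPM for EZH2-/-+EZH2 ESCs. The EZH2-/- and the EZH2-/-+EZH2 libraries overlapped neither each other nor the EZH2+/+ libraries, whereas EZH2-/+ replicate 2 stood above the other two of its genotype. The means were 29.0 ± 13.2 RPM for EZH2-/-, 6.27 ± 1.11 RPM for EZH2-/-+EZH2 and 0.42 ± 0.067 RPM for EZH2+/+ ESCs (SD, n = 3 libraries), a ratio of 69.1 between EZH2-/- and EZH2+/+ ESCs.

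On the log2(RPM + 0.1) scale, which understates the change of low genes, *DNMT3L* rose by 5.71 in EZH2-/- relative to EZH2+/+ ESCs (standard error 0.56, 95% interval 4.51 to 6.92), with an adjusted p of 3.53e-05 from limma, where the method of Benjamini and Hochberg was applied to all genes tested. The rise was 3.61 in EZH2-/-+EZH2 relative to EZH2+/+ ESCs (standard error 0.56, adjusted p = 0.00227 from limma). Whichever of the 6 libraries was omitted, the first value stayed between 5.37 and 6.03 and the second between 3.49 and 3.75, and both passed the test every time. The cells with the transgene on therefore sat between the other two genotypes, at a ratio of 14.9 to EZH2+/+ and with EZH2-/- ESCs at a ratio of 4.62 above them. That last difference was 2.11 on the log2 scale (95% interval 0.90 to 3.31) and had an adjusted p of 0.0613 in limma, short of 0.05. A further fit took the library number as a block (replicate block), since same-numbered libraries tended to deviate together, least clearly for number 2. There the adjusted p from limma was 0.0294, and EZH2-/- ESCs were called higher. In EZH2-/+ relative to EZH2+/+ ESCs the difference was 0.46 (adjusted p = 0.896 from limma), and it was -0.36 without EZH2-/+ replicate 2.

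**Figure D1:**
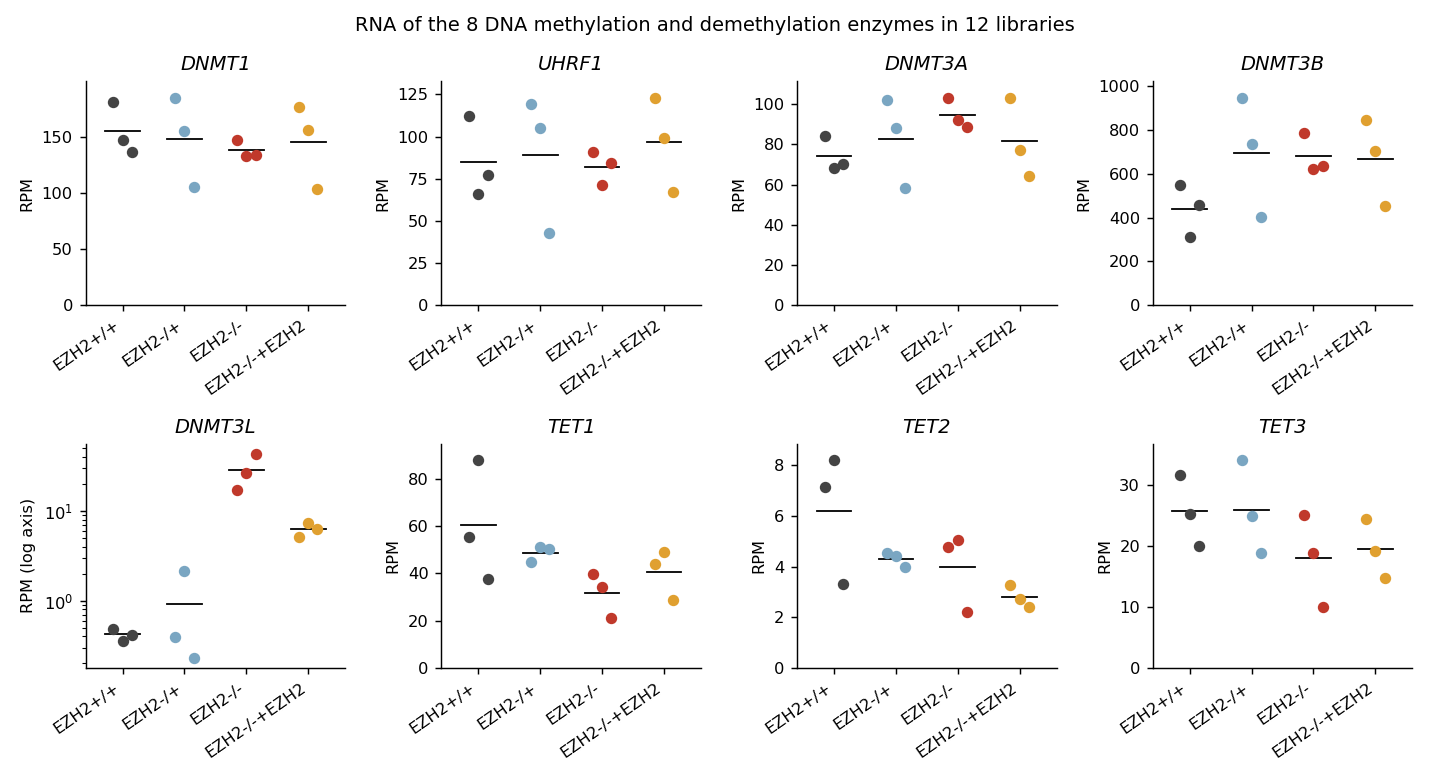
RPM of the 8 genes (y axis, a log axis for *DNMT3L* and a linear axis from 0 for the others) by genotype (x axis), with 1 point per library, replicates 1 to 3 from left to right, and a line at the mean of 3 libraries. *DNMT3L* runs from 0.231 to 2.12 RPM for EZH2+/+ and EZH2-/+ ESCs and from 5.12 to 43.4 RPM in the other two genotypes, while the genotypes overlap for *DNMT1* and *UHRF1*.

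Reads of *DNMT3L* numbered 14 to 22 per EZH2+/+ library and 983 to 1461 per EZH2-/- library, so the low group rests on few reads. Counting was without regard to strand, and the gene on the opposite strand that overlaps it, *AP001059.5*, was at a mean of 0.623 RPM over the 12 libraries. That mean over all genotypes is below the level of *DNMT3L* in EZH2-/- ESCs and above its 0.355 to 0.488 RPM in the EZH2+/+ libraries. The level of *AP001059.5* in the EZH2+/+ libraries alone is not given here. The part of *AP001059.5* in those low values was not tested. The 6 endoderm markers summed to 81.7 to 161 RPM for EZH2-/-, 15.9 to 32.5 RPM for EZH2-/-+EZH2 and 20.5 to 33.4 RPM for EZH2+/+ ESCs. Of these, 4 of 6 were called higher in EZH2-/- than in EZH2+/+ ESCs and 0 of 6 in EZH2-/-+EZH2 ESCs. The shares of all genes called were 31.4% and 10.3%. The 7 mesoderm markers summed to 194 to 266 RPM for EZH2-/-, 76.1 to 210 RPM for EZH2-/-+EZH2 and 53.7 to 90.7 RPM for EZH2+/+ ESCs. None of the 13 markers was at 0 reads in every library of a genotype. The part of other cell types in the *DNMT3L* differences was not tested.

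The 2 catalytic de novo enzymes were at much higher levels and moved less. *DNMT3B* was at 550, 309 and 458 RPM in the EZH2+/+ libraries, 949, 738 and 403 RPM for EZH2-/+, 787, 624 and 636 RPM for EZH2-/-, and 846, 706 and 455 RPM for EZH2-/-+EZH2 ESCs. Every EZH2-/- library lay above every EZH2+/+ library, whereas the EZH2-/+ and EZH2-/-+EZH2 libraries overlapped those of EZH2+/+ ESCs. The difference of EZH2-/- from EZH2+/+ ESCs was 0.67 on the log2 scale (standard error 0.31, 95% interval -0.014 to 1.35) with an adjusted p of 0.125 in limma. The replicate block put it at an adjusted p of 0.0275, past the threshold. The EZH2-/+ and EZH2-/-+EZH2 ESCs differed from EZH2+/+ ESCs by 0.62 and 0.60 (adjusted p = 0.533 and 0.257 from limma), and EZH2-/- from EZH2-/-+EZH2 ESCs by 0.07 (95% interval -0.62 to 0.75). The replicate block left these 3 short of 0.05.

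*DNMT3A* was at 84.1, 68.1 and 70.4 RPM in the EZH2+/+ libraries and 103, 92.3 and 88.8 RPM in the EZH2-/- libraries, which did not overlap. It was at 102, 88.1 and 58.4 RPM for EZH2-/+ and 103, 77.1 and 64.0 RPM for EZH2-/-+EZH2 ESCs, which both overlapped the EZH2+/+ range. The EZH2-/- to EZH2+/+ difference was 0.36 (standard error 0.21, adjusted p = 0.221 from limma), and the adjusted p was 0.0432 under the replicate block, which called it higher. The other 3 comparisons gave between 0.11 and 0.24, with adjusted p values from 0.608 to 0.944 in limma.

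The maintenance pair showed no called difference. *DNMT1* was at 182, 147 and 137 RPM for EZH2+/+, 185, 155 and 105 RPM for EZH2-/+, 147, 133 and 134 RPM for EZH2-/-, and 177, 156 and 104 RPM for EZH2-/-+EZH2 ESCs. *UHRF1* was at 112, 66.1 and 77.2 RPM for EZH2+/+, 120, 105 and 42.9 RPM for EZH2-/+, 91.1, 71.1 and 84.3 RPM for EZH2-/-, and 123, 99.4 and 67.2 RPM for EZH2-/-+EZH2 ESCs. All 4 genotypes overlapped for both genes. In EZH2-/- relative to EZH2+/+ ESCs, the difference of *DNMT1* was -0.16 (95% interval -0.65 to 0.33) and that of *UHRF1* was -0.02 (95% interval -0.77 to 0.72), intervals that reach changes of this size in both directions. The lowest library of *DNMT1*, *UHRF1*, *DNMT3A* and *DNMT3B* was replicate 3 in both EZH2-/+ and EZH2-/-+EZH2 ESCs. The 10 S phase genes summed to 1100 to 1705 RPM for EZH2-/+ and 1352 to 1458 RPM for EZH2-/-+EZH2 ESCs, and their part in this spread was not tested.

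The TET genes were lower in EZH2-/- than in EZH2+/+ ESCs by point estimate, and 1 of the 3 passed the test, where 31.4% of all genes tested did. *TET1* was at 55.3, 87.8 and 37.7 RPM for EZH2+/+, 44.7, 50.9 and 50.3 RPM for EZH2-/+, 39.5, 34.1 and 20.9 RPM for EZH2-/-, and 43.97, 49.1 and 28.7 RPM for EZH2-/-+EZH2 ESCs. EZH2-/- replicate 1 lay above EZH2+/+ replicate 3, so these groups overlapped. *TET1* fell by 0.90 on the log2 scale in EZH2-/- relative to EZH2+/+ ESCs (standard error 0.30, 95% interval -1.56 to -0.24, adjusted p = 0.0401 from limma), and the adjusted p was 0.00424 under the replicate block. Omitting a single library from the fit ended this call in 4 of 6 cases. The value was -0.92 without EZH2+/+ replicate 1 (adjusted p = 0.0804), -0.58 without EZH2+/+ replicate 2 (0.178), -0.98 without EZH2-/- replicate 2 (0.0703) and -0.63 without EZH2-/- replicate 3 (0.156), all from limma.

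Over all genes tested, the median log2 fold change was -0.13 in EZH2-/- and -0.15 in EZH2-/-+EZH2 relative to EZH2+/+ ESCs, -0.09 in EZH2-/+ relative to EZH2+/+ ESCs and 0.02 in EZH2-/- relative to EZH2-/-+EZH2 ESCs. With RPM rescaled by the median ratio of genes, which removes that shift, the *TET1* difference was -0.77 (adjusted p = 0.0734 from limma), and with the replicate block as well it was -0.77 with an adjusted p of 0.0124.

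*TET3* was at 31.7, 25.3 and 20.04 RPM for EZH2+/+, 34.1, 25.0 and 18.9 RPM for EZH2-/+, 25.1, 18.8 and 10.1 RPM for EZH2-/-, and 24.4, 19.1 and 14.7 RPM for EZH2-/-+EZH2 ESCs. Replicate 1 was the highest and replicate 3 the lowest in every genotype, and the genotypes overlapped. The EZH2-/- to EZH2+/+ difference was -0.58 (standard error 0.32, adjusted p = 0.190 from limma). The replicate block reduced the standard error to 0.14 and the adjusted p to 0.00489, and *TET3* was then called lower.

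*TET2*, also the lowest TET gene per length, was at 7.13, 8.19 and 3.30 RPM for EZH2+/+, 4.53, 4.41 and 3.99 RPM for EZH2-/+, 4.77, 5.03 and 2.197 RPM for EZH2-/-, and 3.27, 2.73 and 2.40 RPM for EZH2-/-+EZH2 ESCs. The EZH2-/-+EZH2 libraries lay below all EZH2+/+ libraries, whereas the EZH2-/- libraries overlapped both. Its difference from EZH2+/+ ESCs was -0.61 in EZH2-/- ESCs (standard error 0.36, adjusted p = 0.211 from limma, 0.0568 with the replicate block). In EZH2-/-+EZH2 ESCs it was -1.03 (adjusted p = 0.0866 from limma), which passed with the replicate block (adjusted p = 0.0113). EZH2-/- ESCs differed from EZH2-/-+EZH2 ESCs by 0.42 (95% interval -0.35 to 1.19, adjusted p = 0.591 from limma). EZH2+/+ replicate 3 decided part of these results, since without it the differences from EZH2+/+ ESCs were -1.01 in EZH2-/- (adjusted p = 0.0414 from limma) and -1.43 in EZH2-/-+EZH2 ESCs (adjusted p = 0.0218). Each was the largest fall among the 6 fits that left out 1 library, and the only one called. The smallest falls were -0.24 in EZH2-/- ESCs, without EZH2-/- replicate 3 (adjusted p = 0.635 from limma), and -0.78 in EZH2-/-+EZH2 ESCs, without EZH2+/+ replicate 2 (0.292). Replicate 3 was the lowest *TET2* library in every genotype.

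**Figure D2:**
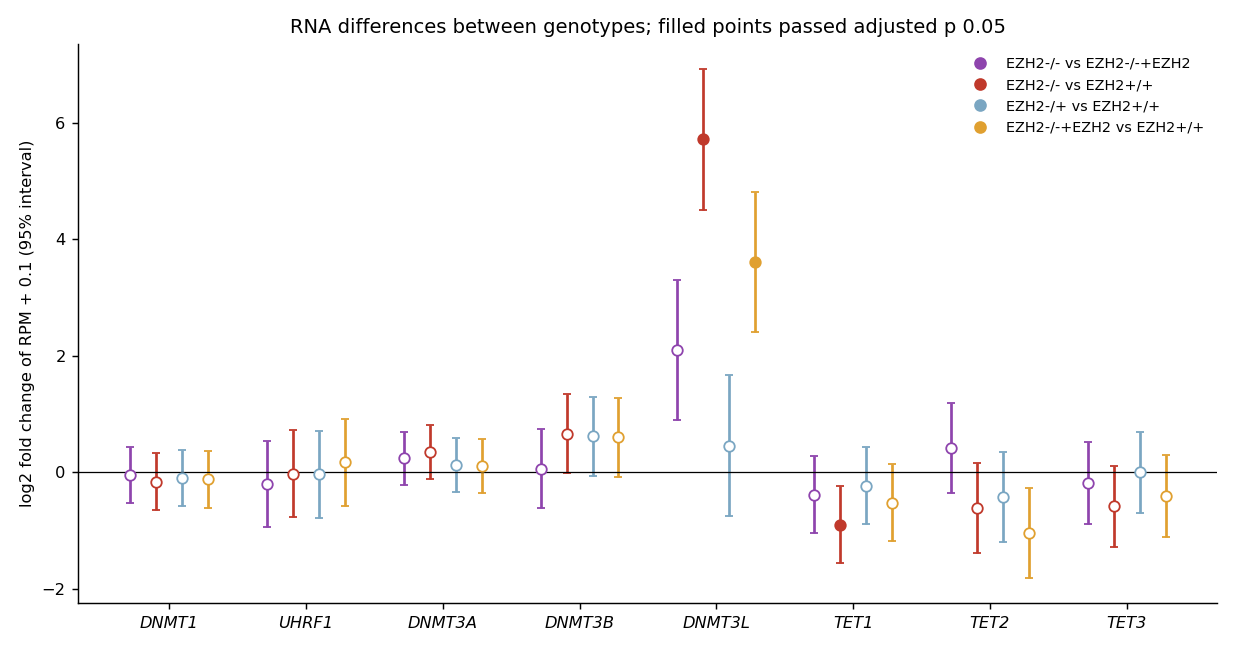
log2 fold change of RPM + 0.1 (y axis) for the 8 genes (x axis) in 4 comparisons of genotypes, with the 95% interval of the limma fit as bars. Filled points passed an adjusted p of 0.05, which were *DNMT3L* at 5.71 and 3.61 and *TET1* at -0.90, and the open points include *DNMT3L* at 2.11 in EZH2-/- relative to EZH2-/-+EZH2 ESCs.

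Counted over the 8 genes, limma called 2 in EZH2-/- relative to EZH2+/+ ESCs (*DNMT3L* higher, *TET1* lower), where 31.4% of all genes tested were called. It called 1 in EZH2-/-+EZH2 relative to EZH2+/+ ESCs (*DNMT3L*), where 10.3% of genes were called. It called 0 in EZH2-/+ relative to EZH2+/+ ESCs, where 1.15% of genes were called, and 0 in EZH2-/- relative to EZH2-/-+EZH2 ESCs, where 3.15% were. With the replicate block the counts were 5, 2, 0 and 1 in the same order, against 45.3%, 22.4%, 2.88% and 9.40% of all genes. Without the block, the shares of members called are near those of all genes, and the size of the *DNMT3L* difference is what sets it apart among the 8. These comparisons share EZH2+/+ or EZH2-/- libraries and are not independent of each other.

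Levels of different genes were compared per length, in RPM per kb of the merged exons of GENCODE release 44. In EZH2+/+ ESCs the order was *DNMT3B* (mean 63.8 RPM per kb), *UHRF1* (16.6), *DNMT1* (10.1), *TET1* (6.27), *DNMT3A* (5.38), *TET3* (1.98), *TET2* (0.377) and *DNMT3L* (0.226). *DNMT3B* stood apart, with its lowest library at 44.99 RPM per kb, while the ranges of *TET1* (3.92 to 9.13) and *DNMT3A* (4.94 to 6.10) overlapped, as did those of *TET2* (0.200 to 0.497) and *DNMT3L* (0.191 to 0.263). In EZH2-/- ESCs *DNMT3L* came after *DNMT3B* and *UHRF1*, at a mean of 15.6 RPM per kb. Its range there, 9.30 to 23.3 RPM per kb, overlapped those of *UHRF1* (13.8 to 17.7) and *DNMT1* (8.66 to 9.57). In EZH2-/-+EZH2 ESCs *DNMT3L* lay between *TET1* and *TET3* at 3.37 RPM per kb. *TET2* had the lowest mean of the 8 in EZH2-/- and EZH2-/-+EZH2 ESCs, at 0.243 and 0.170 RPM per kb. In EZH2-/+ ESCs its range (0.242 to 0.275) lay within that of *DNMT3L* (0.124 to 1.14), which was below *TET2* in replicates 1 and 3. Merged exon lengths include exons that these cells may not use, so the values order the genes only roughly.

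Across the 12 libraries, the genes most like *DNMT3L* on the log2 scale were *LGALS12* (Pearson's r = 0.985), *CH507-9B2.2* (0.983) and *TFCP2L1* (0.980), among genes that averaged 1 RPM or more. For *TET1* they were *MTR* (0.985), *TROVE2* and *MIB1*, for *TET2* *ZCCHC11* (0.940), *TRIM44* and *ANK3*, and for *TET3* *KLHL42* (0.979) and *GTF2I*. For *DNMT3A* they were *PPP1R10* (0.980), *LSG1* and *UBXN8*, for *DNMT3B* *ITPRIP* (0.951), *TARS* and *RRP15*, for *DNMT1* *USP19* (0.973), *GTF3C1* and *CIC*, and for *UHRF1* *MTRR* (0.952), *RTEL1* and *CPSF6*. Among the members, the highest r were 0.883 for *DNMT1* with *UHRF1* and 0.867 for *DNMT3A* with *DNMT3B*, and the lowest was -0.69 for *DNMT3L* with *TET1*. These values describe 12 libraries that share genotype and library number.

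ChIP-seq measured H3K27me3, H3K4me3 (found at active and poised start sites), H3K27ac (active promoters and enhancers) and H3K4me1 (enhancers and promoter flanks) in the 4 genotypes, with input chromatin, and EZH2 in EZH2+/+ ESCs. The deposited table holds 1 column per genotype and mark, so these values have no replicate error and no test. Each value is a window reaching 2.5 kb either side of a start site. The 8 genes had 28 windows (*DNMT1*), 13 (*DNMT3A*), 8 (*TET2*), 6 (*UHRF1*), 5 (*DNMT3B*), 4 (*TET3*), 3 (*DNMT3L*) and 1 (*TET1*). Many of them overlap and share reads. The main window of each gene is the one with the most H3K4me3 averaged over the genotypes. The lowest values of the columns put the depth at 3.43e+06 reads for H3K4me3 in EZH2+/+ ESCs, the shallowest column, and at 9.11e+06 to 1.51e+07 reads for H3K27me3. These depths, and the reads given for windows, are geometric means of the libraries averaged in a column.

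*TET2* carried the most H3K27me3 of the 8 main windows. It was at 15.2 RPM for EZH2+/+, 19.5 RPM for EZH2-/+, 0.971 RPM for EZH2-/- and 18.7 RPM for EZH2-/-+EZH2 ESCs, against input of 1.24, 1.41, 1.70 and 1.57 RPM. The EZH2-/- value lay below its input, and the other 3 genotypes were within a narrow range far above theirs. The EZH2+/+ value was 15.7 times that of EZH2-/- ESCs, a log2 change of -3.84, and rested on 139 reads against 13.4 (geometric means of the averaged libraries). Only 3.99% of all windows had as much H3K27me3 in EZH2+/+ ESCs, and 2.67% as much EZH2, which was at 1.66 RPM. The 8 *TET2* windows had log2 changes of -3.84 to -3.56. H3K4me3 at the *TET2* main window was 14.7, 19.8, 14.9 and 14.3 RPM in the same order of genotypes, and H3K27ac was 1.93, 2.11, 4.39 and 2.09 RPM. H3K27ac was thus 2.28 times as high in EZH2-/- as in EZH2+/+ ESCs and 2.10 times as high as in EZH2-/-+EZH2 ESCs. The log2 change of H3K27ac from EZH2+/+ was 1.15, and 0.87 relative to the median of all windows. Input at this window was also higher in EZH2-/- than in EZH2+/+ ESCs (1.70 against 1.24 RPM). In EZH2+/+ ESCs H3K27ac was 1.56 times input, and 65.3% of all windows had as much. The RNA of *TET2*, given above, was not called higher in EZH2-/- ESCs in either comparison.

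*TET3* had H3K27me3 of 4.61 RPM for EZH2+/+, 3.69 RPM for EZH2-/+, 0.647 RPM for EZH2-/- and 3.99 RPM for EZH2-/-+EZH2 ESCs, against input of 1.65, 1.27, 1.18 and 1.12 RPM. The log2 change in EZH2-/- relative to EZH2+/+ ESCs was -2.66, from 42.1 to 8.94 reads. H3K4me3 was 16.7, 20.4, 13.4 and 12.8 RPM and H3K27ac was 1.87, 2.68, 3.496 and 2.95 RPM. EZH2 was at 0.805 RPM, with 11.7% of windows as high. That was close to main windows with less H3K27me3, at 0.783 RPM for both *DNMT3A* and *UHRF1* and 0.751 RPM for *DNMT3B*. The main windows of *TET1*, *DNMT1* and *DNMT3L* had 0.537, 0.483 and 0.311 RPM of EZH2. *TET3* RNA was at a lower mean in EZH2-/- than in EZH2+/+ ESCs (18.0 ± 7.56 against 25.7 ± 5.85 RPM, SD, n = 3 libraries).

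*DNMT3L* had little H3K27me3 or EZH2 at its main window. H3K27me3 was 2.08 RPM for EZH2+/+, 0.938 RPM for EZH2-/+, 0.834 RPM for EZH2-/- and 1.49 RPM for EZH2-/-+EZH2 ESCs, against input of 1.52, 1.39, 1.24 and 1.04 RPM. In EZH2+/+ ESCs that was 1.37 times input, and 34.9% of all windows had as much. EZH2 was at 0.311 RPM, near the median of all windows (0.301 RPM). The log2 change of H3K27me3 in EZH2-/- relative to EZH2+/+ ESCs was -1.22, where the median of all windows was -0.71. H3K4me3 at this window was 2.46 RPM for EZH2+/+, 3.45 RPM for EZH2-/+, 5.16 RPM for EZH2-/- and 4.18 RPM for EZH2-/-+EZH2 ESCs. The other 7 genes had 11.2 to 33.4 RPM of H3K4me3. The log2 change of 1.04 in EZH2-/- relative to EZH2+/+ ESCs was the only one past 1 among the 8 main windows for this mark. The EZH2+/+ value was low, at 8.43 reads as a geometric mean of the averaged libraries. The log2 change was 0.83 with a pseudocount of 1 RPM. H3K4me1 was 5.23, 5.99, 8.86 and 6.37 RPM and H3K27ac 2.95, 2.67, 3.02 and 2.19 RPM in the same order of genotypes. A window farther downstream, chr21:44248738-44253738, had H3K27me3 of 1.78, 1.16, 0.428 and 1.03 RPM in that order. Input there was 0.691, 0.841, 0.534 and 0.552 RPM. The EZH2+/+ value was 2.58 times input, and the log2 change in EZH2-/- relative to EZH2+/+ ESCs was -1.83.

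**Figure D3:**
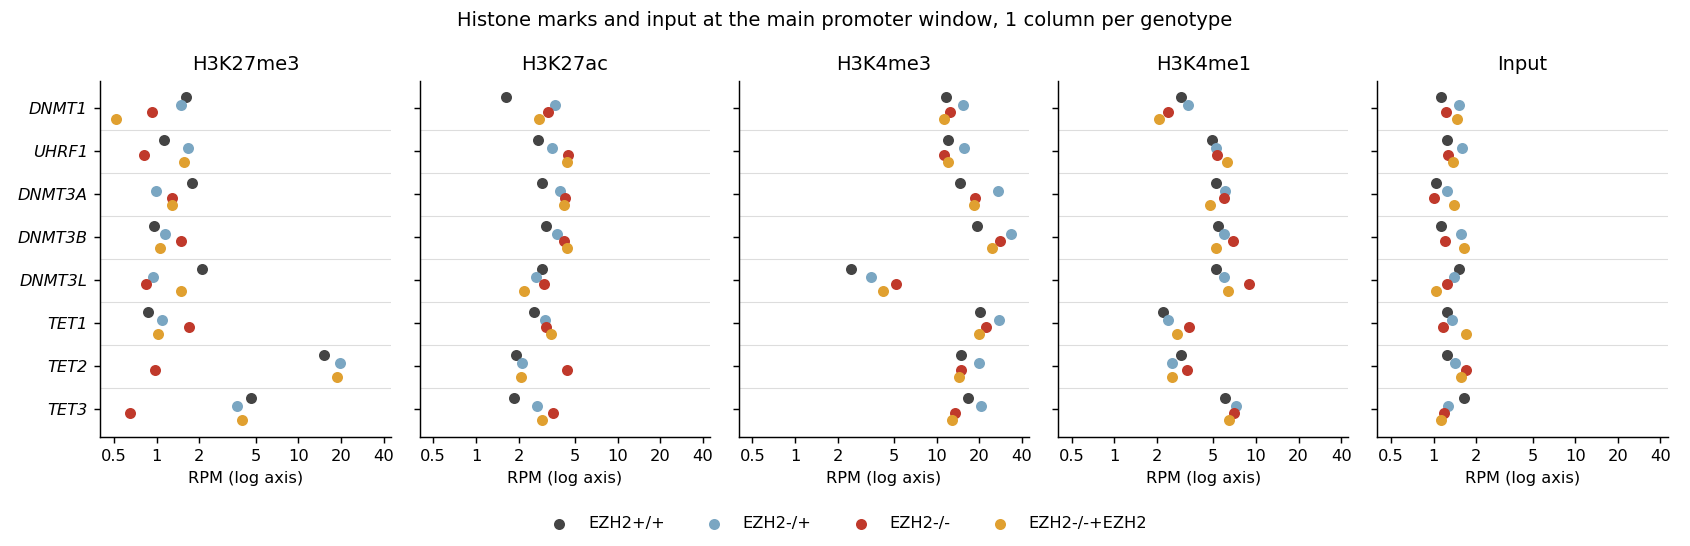
RPM (x axis, log axis) of 4 histone marks and input at the main promoter window of the 8 genes (y axis), with 1 point per genotype and no replicates. H3K27me3 at *TET2* is at 15.2 to 19.5 RPM in 3 genotypes and 0.971 RPM for EZH2-/- ESCs, *TET3* is at 3.69 to 4.61 RPM in those 3 and 0.647 RPM in EZH2-/- ESCs, and *DNMT3L* stands out by its H3K4me3, at 2.46 to 5.16 RPM.

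The main windows of *DNMT1*, *UHRF1*, *DNMT3A*, *DNMT3B* and *TET1* had H3K27me3 of 0.864 to 1.77 RPM for EZH2+/+ ESCs, 0.699 to 1.71 times input. In EZH2-/- relative to EZH2+/+ ESCs their log2 changes ran from -0.73 (*DNMT1*) to 0.89 (*TET1*), at 7.87 to 23.2 reads. H3K4me3 at these 5 was 11.6 to 20.03 RPM for EZH2+/+ and 11.2 to 28.1 RPM for EZH2-/- ESCs, and H3K27ac 1.63 to 3.14 and 3.11 to 4.46 RPM.

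Windows away from the main one carried H3K27me3 at 2 of these genes. For *DNMT3A*, 3 overlapping windows around the most upstream start sites, spanning chr2:25339385-25345090, had 6.81 to 6.90 RPM for EZH2+/+ ESCs, 5.16 to 5.64 RPM for EZH2-/+, 0.537 to 0.679 RPM for EZH2-/- and 3.42 to 3.69 RPM for EZH2-/-+EZH2 ESCs. The main window of *DNMT3A* lies downstream at chr2:25249583-25254583, around a start site inside the gene, and had 14.5 RPM of H3K4me3 against 7.05 to 8.02 RPM in the upstream windows. For *DNMT1*, 2 nearly identical windows at chr19:10228773-10233786 had 4.41 RPM of H3K27me3 in EZH2+/+ and 0.709 RPM for EZH2-/- ESCs. They lie at the far upstream end of the listed gene, where *S1PR2*, on the same strand, overlaps it. Gene-level RNA counts do not separate the transcripts that begin at these sites.

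Over all 68 windows, H3K27me3 was lower by more than 1 on the log2 scale in 26 (38.2%) in EZH2-/- relative to EZH2+/+ ESCs and higher by as much in 0. Among all windows 40.3% were lower and 43.3% moved either way by as much, so this share is near the background. By gene the 26 were all 8 *TET2* windows, 8 of 28 for *DNMT1*, 3 of 13 for *DNMT3A*, 3 of 3 for *DNMT3L*, 3 of 4 for *TET3* and 1 of 6 for *UHRF1*. In EZH2+/+ ESCs, 2 of the 28 *DNMT1* windows had H3K27me3 at 2-fold over input or more. Of the 28, 7 were lower by as much in EZH2-/-+EZH2 relative to EZH2+/+ ESCs, and 2 in EZH2-/- relative to EZH2-/-+EZH2 ESCs. Of all 153958 windows, 7775 and 47522 were. In EZH2-/- relative to EZH2+/+ ESCs, H3K27ac was higher in 12 windows and lower in 2, where 10.9% of all windows moved as much. Of the 12, 8 were those of *TET2*. For H3K4me3, 1 window was higher and 12 lower against 15.6% of all windows, and 10 of the 12 were *DNMT1* windows. Relative to EZH2+/+ ESCs, 10 of the 28 *DNMT1* windows were lower by as much in EZH2-/-+EZH2 and 9 in EZH2-/+ ESCs. In EZH2-/- relative to EZH2-/-+EZH2 ESCs, 0 of the 28 were lower. Of all 153958 windows, 18395, 26241 and 1458 were lower in these comparisons, in that order. The *DNMT1* main window changed by 0.11 in EZH2-/- relative to EZH2+/+ ESCs. For H3K4me1, 0 moved as much, against 5.55%. At 2-fold over input or more in EZH2+/+ ESCs, H3K27me3 marked 17 of the 68 windows (25.0%) and 24.8% of all windows.

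**Figure D4:**
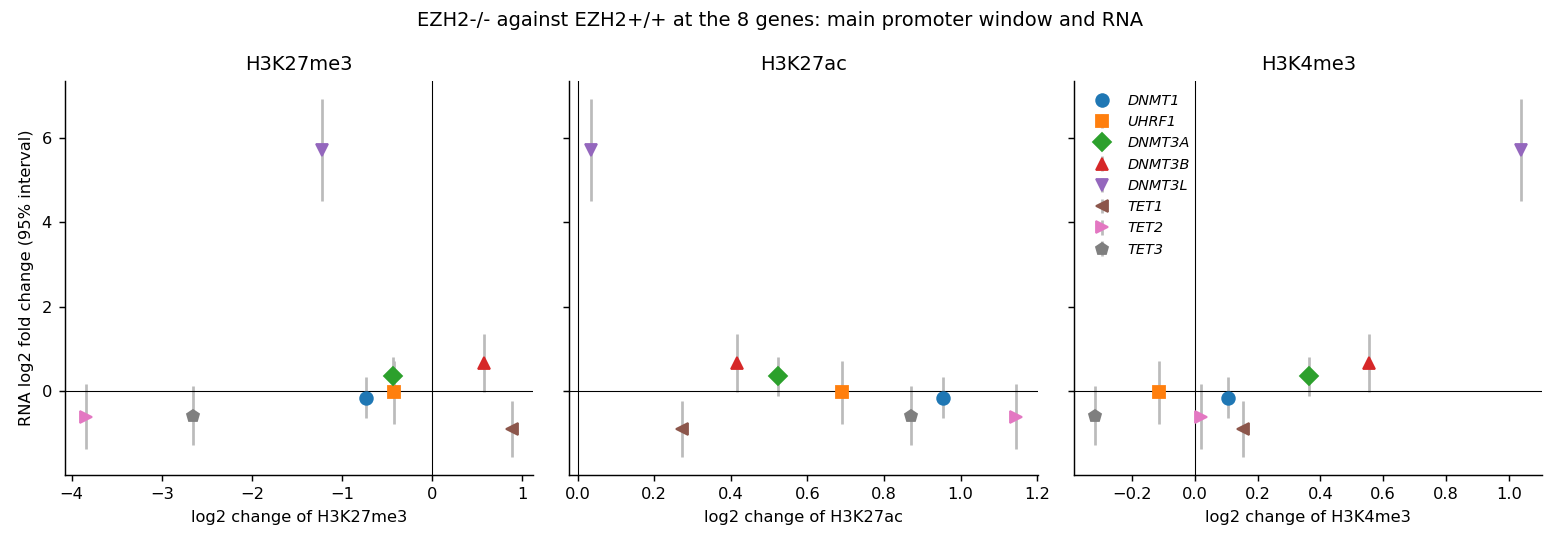
RNA log2 fold change with its 95% interval (y axis) against the log2 change of H3K27me3, H3K27ac or H3K4me3 at the main promoter window (x axis), EZH2-/- relative to EZH2+/+ ESCs, for the 8 genes. *TET2* and *TET3* lie farthest left for H3K27me3, at -3.84 and -2.66, with RNA differences of -0.61 and -0.58, and *DNMT3L* lies highest at 5.71 with an H3K27me3 change of -1.22.

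The wider pathway was described from lists of genes. Among all genes tested, 31.4% were called in EZH2-/- relative to EZH2+/+ ESCs, and 45.3% with the replicate block. The counts below are to be read beside these shares. Of 8 partners of maintenance methylation, 2 were called higher and 3 lower in EZH2-/- relative to EZH2+/+ ESCs, with a median log2 fold change of -0.25. *UHRF2*, the paralog of *UHRF1*, fell from 40.3 ± 5.98 to 21.1 ± 1.15 RPM (SD, n = 3 libraries), which is -0.92 on the log2 scale (0.16 standard error, adjusted p = 0.000975 from limma), and *LIG1*, which seals nicks at replication, fell by 0.51 (adjusted p = 0.015). *USP7*, the deubiquitinase that binds DNMT1 and UHRF1, rose by 0.42 (adjusted p = 0.0244). *UHRF2* was also lower in EZH2-/-+EZH2 ESCs, by -0.59 (adjusted p = 0.0299 from limma).

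Of 8 readers of methylated CpG, 2 were called higher and 0 lower in EZH2-/- relative to EZH2+/+ ESCs, and 2 higher and 2 lower with the replicate block. *ZBTB33*, which encodes the reader Kaiso, rose from 14.9 ± 4.12 to 34.1 ± 12.9 RPM (log2 fold change 1.15, adjusted p = 0.0375 from limma). Of 11 genes for base excision repair of oxidized methylcytosine, 2 were higher and 1 lower, and 2 higher and 4 lower with the replicate block. The stress-induced *GADD45B* rose from 1.52 ± 0.368 to 8.24 ± 2.40 RPM (2.35, adjusted p = 0.000996 from limma), *GADD45A* rose by 0.76 (adjusted p = 0.0195) and the glycosylase gene *NEIL2* fell by 1.07 (adjusted p = 0.0108). *TDG*, the glycosylase that removes the oxidized bases, was among the 8 of 11 that did not pass without the block.

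Of 10 CXXC-domain proteins and regulators tied to H3K4 or H3K36 methylation or to imprint protection, 2 were higher and 1 lower in EZH2-/- relative to EZH2+/+ ESCs, and 3 higher and 1 lower with the replicate block. *DPPA3*, which encodes a protein that keeps UHRF1 off chromatin, rose from 0.0733 ± 0.0669 to 8.93 ± 4.79 RPM, which is 5.64 on the log2 scale (0.45 standard error, adjusted p = 9.42e-06 from limma), although the EZH2+/+ libraries, at 0 to 0.131 RPM, hold few reads. It was at 0.851 ± 0.307 RPM for EZH2-/-+EZH2 and 0.617 ± 0.208 RPM for EZH2-/+ ESCs. *DPPA3* thus reached the mean of 1 RPM required for naming only through the EZH2-/- libraries, so its being named is no evidence about the list. The difference was 3.14 log2 units in EZH2-/- relative to EZH2-/-+EZH2 ESCs (adjusted p = 0.00352), 2.495 in EZH2-/-+EZH2 and 2.09 in EZH2-/+ relative to EZH2+/+ ESCs (adjusted p = 0.00501 and 0.0447), all from limma. *CXXC4*, a relative of the DNA-binding part of TET proteins, fell by 1.87 in EZH2-/- and by 1.32 in EZH2-/-+EZH2 relative to EZH2+/+ ESCs (adjusted p = 0.000767 and 0.0162).

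In EZH2-/- relative to EZH2-/-+EZH2 ESCs, limma called 0 of 8 maintenance partners, 0 of 8 readers, 0 of 11 repair genes and 1 of 10 CXXC and related genes, *DPPA3*. With the replicate block the counts were 0, 2, 1 and 2, all higher. Of all genes tested, 3.15% were called in this comparison, and 9.40% with the block. In EZH2-/+ relative to EZH2+/+ ESCs the same lists gave 0, 0, 0 and 1, and the last became 2 with the replicate block. The shares of all genes there were 1.15% and 2.88%. Markers of the cell state moved as well in EZH2-/- relative to EZH2+/+ ESCs, where 31.4% of all genes were called, and 45.3% with the replicate block. Of 8 pluripotent ESC markers 4 were higher and 2 lower, of 6 mesenchyme markers 4 were higher and 1 lower, of 7 mesoderm markers 3 were higher, of 5 neuroectoderm markers 1 was higher and 2 lower, and of 4 trophectoderm markers tested 1 was higher. With the replicate block, the higher and lower counts were 4 and 3 for ESC markers, 4 and 2 for mesenchyme, 5 and 0 for both mesoderm and endoderm, and unchanged for neuroectoderm and trophectoderm. Of 10 S phase genes 1 was lower, *TYMS*, at -0.99 (adjusted p = 0.000341 from limma), and 2 with the replicate block. The part of these shifts in the members' RNA was not tested.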

How the data were processed

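RNA-seq and ChIP-seq of SSEA4-sorted H9 ESCs were compared between 4 genotypes, grouped by the submitted labels. Per the labels and the study's methods, the authors trimmed reads with Trim Galore 0.4.0, aligned RNA reads to GRCh38 with TopHat2 2.0.12 and ChIP reads with Bowtie2 2.2.5, and counted in SeqMonk without regard to strand. ChIP reads were extended, and non-duplicated reads were counted within 2.5 kb of start sites. The deposited values are log2 RPM in both tables. The labels list 2 libraries behind each histone and input column and 1 behind the EZH2 column, while the study states 3 replicates.

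Values were returned to RPM, with a gene at 0.9 of a read set to 0. Below 1000 reads, 100% of RNA values were whole multiples of 1 read within 0.1 read, so reads could be recovered. Reads on genes ranged from 16587860 to 36589089 per library, where 3 reads equal 0.0528 to 0.120 RPM, and such floors cover counting error only. ChIP depth was taken from the lowest value of each column as 0.9 of a read.

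The authors used DESeq2 on raw counts, which were not used here. Instead limma 3.58.1 (lmFit, eBayes with trend) in R 4.3.3 was fitted to log2(RPM + 0.1) of all 12 libraries after leaving out genes that averaged under 0.1 RPM, which left 20608 of 35805. A gene was called where its p, adjusted by the Benjamini-Hochberg method, was under 0.05. The fit was also run on simulated counts, drawn independently with a fixed dispersion and no replicate effect. That run does not show how the fit behaves where same-numbered libraries deviate together. Library numbers 1 to 3 recur in every genotype. After subtraction of genotype means, same-numbered libraries correlated at 0.107 to 0.56 in all 4 comparisons, and libraries of different numbers at -0.449 to 0.21. For number 2 the same-numbered value was not always the higher, for example 0.109 against 0.21 in EZH2-/-+EZH2 and EZH2+/+ ESCs. A fit with the replicate block is given where it changes a member's call or a list's count. ChIP changes are differences of log2(RPM + 0.1) without a test. The alternatives were other pseudocounts, filters and scalings, the 6 libraries compared alone, no trend, and each library left out.

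The 8 genes, the gene lists and the tests were chosen with earlier results of these data known. All 8 genes are reported in every comparison. From each other list, at most 3 called genes of the smallest adjusted p averaging 1 RPM or more are named per comparison. *TDG* was named after its values were seen. Some genes that these rules select are not reported here. Lists of germline genes, methyl donor and TET cofactor metabolism, and lineage markers were treated alike. RefSeq promoters (GRCh38.p14) and GENCODE release 44 share the build of the tables.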

Additional observations from a re-analysis of the deposited data

How the results depend on the processing

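Of the counts of members called, that for EZH2-/- relative to EZH2+/+ ESCs was 2 and became 5 with the replicate block, alone or with median-ratio scaling, 1 with no filter, with median-ratio scaling and with no trend, and 4 without the 4 libraries numbered 3. For EZH2-/-+EZH2 relative to EZH2+/+ ESCs it was 1 and became 2 with the replicate block, and 3 when median-ratio scaling was added or the libraries numbered 3 were left out. For EZH2-/- relative to EZH2-/-+EZH2 ESCs it was 0 and became 1 (*DNMT3L*) with the replicate block, with and without median-ratio scaling, with a pseudocount of 1 RPM and in the 6 libraries alone. For EZH2-/+ relative to EZH2+/+ ESCs it became 1 (*TET2*) without the libraries numbered 3. Leaving out 1 library gave 1 to 3, 1 to 2, 0 to 0 and 0 to 0 in these 4 comparisons. The fits that joined the replicate block to the scaling or left out the libraries numbered 3 were chosen after seeing the data. The replicate block changed no other call of a member than those given beside the results.

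Of 68 windows past 1 on the log2 scale, H3K27me3 had 26, 16 with a pseudocount of 1 RPM and 3 of the 8 main windows. H3K4me3 had 13, 2 with that pseudocount and 1 main window. H3K27ac had 14, 1 with that pseudocount, 5 after centring on all windows and 1 main window. H3K4me1 had 0, 1 after centring and 8 after subtracting input. The 8 main windows alone are fewer by construction. The cause of the other moves was not tested.

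The sign of small differences, none of them called, turned in some fits. For EZH2-/- relative to EZH2-/-+EZH2 ESCs, *DNMT3B* was at -0.14 and *TET3* at 0.0087 without the libraries numbered 3, and leaving out 1 library gave -0.27 to 0.11 for *DNMT1*, -0.19 to 0.26 for *DNMT3B* and -0.46 to 0.19 for *TET3*. Relative to EZH2+/+ ESCs, median-ratio scaling put *UHRF1* at 0.10 in EZH2-/- and 0.0708 in EZH2-/+ ESCs. It put *DNMT1* at 0.0080 in EZH2-/+ ESCs and at 0.0303 in EZH2-/-+EZH2 ESCs, with and without the replicate block. Without the libraries numbered 3, *DNMT1* was at 0.0504 and *UHRF1* at 0.38 in EZH2-/+ ESCs, while *DNMT1* was at 0.0235 in EZH2-/-+EZH2 ESCs. Leaving out 1 library gave -0.19 to 0.19 for *UHRF1* in EZH2-/- ESCs. In EZH2-/+ ESCs it gave -0.27 to 0.14 for *DNMT1*, -0.0418 to 0.36 for *DNMT3A*, -0.36 to 1.02 for *DNMT3L*, -0.31 to 0.43 for *UHRF1*, -0.52 to 0.0888 for *TET1* and -0.22 to 0.21 for *TET3*. In EZH2-/-+EZH2 ESCs it gave -0.27 to 0.11 for *DNMT1*, -0.072 to 0.27 for *DNMT3A* and -0.023 to 0.41 for *UHRF1*. The ChIP values have no replicates, and H3K4me3 in EZH2+/+ ESCs had 3.43e+06 reads as a geometric mean of the averaged libraries.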

Other observations

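Of 8 germline genes known to be silenced by promoter methylation in somatic cells, 5 passed the filter on low values. In EZH2-/- relative to EZH2+/+ ESCs, 2 were called higher and 2 lower, where 31.4% of all genes tested were called. *DAZL*, which encodes a germ cell RNA-binding protein, fell from 2.41 ± 0.792 to 0.224 ± 0.172 RPM (SD, n = 3 libraries), a log2 fold change of -3.03 (adjusted p = 0.00103 from limma), and was at 1.78 ± 0.0921 RPM for EZH2-/-+EZH2 ESCs, where the change to EZH2-/- ESCs was -2.65 (adjusted p = 0.0172). *STK31* fell by 0.91 in EZH2-/- and by 0.94 in EZH2-/-+EZH2 relative to EZH2+/+ ESCs (adjusted p = 0.00928 and 0.0203). The 2 called higher were *TDRD1* and *HORMAD1*, which had means under 1 RPM over the 12 libraries and are named after their values were seen. *TDRD1* passed the filter only through EZH2-/- ESCs, and *HORMAD1* only through EZH2-/- and EZH2-/-+EZH2 ESCs. The filter thus let these genes in where they were high, and the count of 2 higher is no evidence about the list. *TDRD1* had no read in any EZH2+/+ or EZH2-/+ library, at most 0.0257 RPM for EZH2-/-+EZH2 ESCs, and 1.196 to 2.68 RPM for EZH2-/- ESCs. *HORMAD1* was at 0.413 to 2.52 RPM for EZH2-/- and 0.694 to 1.72 RPM for EZH2-/-+EZH2 ESCs, against at most 0.0222 RPM for EZH2+/+ ESCs.

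Of 9 genes for the methyl donor and for the cofactors of TET enzymes, 1 was called in EZH2-/- relative to EZH2+/+ ESCs, and 3, all lower, with the replicate block. The shares of all genes tested were 31.4% and 45.3%. *IDH2*, a mitochondrial enzyme that makes the TET co-substrate 2-oxoglutarate, fell from 63.4 ± 12.8 to 26.6 ± 2.07 RPM (log2 fold change -1.23, adjusted p = 0.000491 from limma) and was at 39.4 ± 7.86 RPM for EZH2-/-+EZH2 ESCs (-0.68 relative to EZH2+/+ ESCs, adjusted p = 0.0338). DNA methylation itself was not measured in the data used here.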
